A study of Mus musculus with 22 samples.

Results

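Zinc and iron handling was followed through 10 genes in mouse E14 embryonic stem cells under 10 compounds. These genes move both metals into, within and out of cells and were picked by symbol, whatever their values: the metallothioneins Mt1 and Mt2, the zinc transporters Slc30a1 and Slc39a10, the iron importers Tfrc and Slc11a2, the ferritin subunits Fth1 and Ftl1, the iron exporter Slc40a1 and the iron regulatory protein gene Ireb2. All 10 were found among the 18487 genes of the expression table, and all 10 were among the 17275 genes tested. The table held 22 RNA-seq libraries, 2 for each compound and 2 for a group labelled NC, whose own treatment is not described further. The compounds were Bromosporine (a bromodomain inhibitor), Chaetocin (a fungal product used against histone lysine methyltransferases), CPTH2 and Garcinol (histone acetyltransferase inhibitors), DZNep (an inhibitor of S-adenosylhomocysteine hydrolase), IOX1 (a metal-binding quinoline used against 2-oxoglutarate oxygenases), MS023 (an inhibitor of type I protein arginine methyltransferases), OICR (given only by this label), UNC0379 (an inhibitor of the histone methyltransferase SETD8) and Valproate (a histone deacetylase inhibitor). All 11 groups were labelled as the same E14 line with no other allele. Doses, times and growth conditions were not given in the labels, so the compounds cannot be ranked by potency, and nothing in the labels says whether the 2 libraries of a group came from separate cultures. P-values therefore measure the spread between libraries, which may be technical.

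Zinc and iron are both needed and harmful, and cells hold their free amounts within narrow limits. Free zinc is sensed by the transcription factor MTF1, which binds metal response elements and switches on metallothioneins, small proteins that bind the metal, and the exporter gene Slc30a1. Iron is controlled mostly after transcription. When iron is scarce, the iron regulatory proteins, IRP1 (encoded by Aco1) and IRP2 (encoded by Ireb2), bind hairpins called iron-responsive elements. Binding to a 5′ element blocks translation of ferritin and ferroportin, and binding to 3′ elements protects the transferrin receptor messenger RNA from decay. RNA-seq sees the second effect and not the first.

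The iron-responsive element carries a CAGUG loop over a stem of 5 pairs, with an unpaired C below it on the 5′ side. This shape (C, 5 bases, CAGUGN and 5 bases that pair with the first 5, G-U pairs allowed) was searched for in the GENCODE M21 transcripts. It was found in 4 of the 10 genes and in 1.34% of 21877 protein-coding genes (294). The matches are shown because they divide the members by where such an element could act, on messenger RNA decay in Tfrc and on translation in the other 3, with the CAGUG loop in capitals. Tfrc held 4 of them, all in its 3′ UTR, while Fth1, Ftl1 and Slc40a1 held 1 each, in the 5′ UTR.
Tfrc, site 1: auuaucggaagCAGUGccuuccauaau
Tfrc, site 2: auuaucgggagCAGUGucuuccauaau
Tfrc, site 3: uauaucggagaCAGUGaucuccauaug
Tfrc, site 4: auuaucgggaaCAGUGuuucccauaau
Fth1: uccugcuucaaCAGUGcuugaacggaa
Ftl1: ucuugcuucaaCAGUGuuugaacggaa
Slc40a1: aacuucagcuaCAGUGuuagcuaaguu
The other members had no match of this shape in their annotated protein-coding transcripts, which says nothing of other forms of the element.

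The metal response element has the core TGCACNC or TGCGCNC. In the RefSeq promoter table of GRCm38.p6, 25.7% of 32851 windows of 300 bases held at least 1 core on either strand and 0.517% held at least 4. The 300-base window of Mt2 (chr8:94172368-94172667, reaching 50 bases past its RefSeq start) held 4. The window of Mt1 in the same table (chr8:94178839-94179138) held 3, 1 of them in the 250 bases before the start. The annotation gives Mt1 several starts, and the 300 bases before the last of them (chr8:94178941-94179240) held 5, but this stretch was set on another start after the letters and the count of 3 had been seen, and the shares above do not apply to it. It is the one whose sites are printed for Mt1. These sites are printed 5′ to 3′ on the strand that holds the core, which is in capitals. The strand is that of the gene unless given as reverse.
Mt1, chr8:94179061-94179077: cgctgTGCACACtggcg
Mt1, chr8:94179086-94179102: agctcTGCACTCcgccc
Mt1, chr8:94179104-94179120: aaaagTGCGCTCggctc
Mt1, chr8:94179168-94179184, reverse: gggttTGCACCCagcag
Mt1, chr8:94179182-94179198: cccttTGCGCCCggact
Mt2, chr8:94172390-94172406: gcctcTGCACCCggccc
Mt2, chr8:94172485-94172501: cccttTGCGCTCagctc
Mt2, chr8:94172563-94172579, reverse: gagccTGCACACgccct
Mt2, chr8:94172617-94172633, reverse: gggccTGCGCACgaccc
The 250 bases before the RefSeq start of Mt2 (chr8:94172368-94172617, plus strand) are given whole, since Mt2 had the largest differences of the 10 genes. Capitals mark the 3 cores that lie within these bases, the third of them read on the reverse strand.
Mt2: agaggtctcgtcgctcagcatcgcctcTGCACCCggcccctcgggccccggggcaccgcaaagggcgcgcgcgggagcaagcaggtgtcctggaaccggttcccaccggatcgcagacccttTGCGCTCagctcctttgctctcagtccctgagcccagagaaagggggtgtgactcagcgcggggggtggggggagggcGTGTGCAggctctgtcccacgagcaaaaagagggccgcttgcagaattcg
The promoter windows of Slc30a1 and of 1 of the 2 Tfrc starts held 2 cores each, and the windows of Slc39a10, Fth1, Ftl1 and Ireb2 held none. Slc11a2 and Slc40a1 were not in the promoter table. The letters TGACNNNGC, the core of the antioxidant response element, stood in the Mt2 and Slc30a1 windows and in 12.4% of all windows. A match is a description of letters and not evidence of binding.

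The values are normalized read counts forced by the authors to nearly the same distribution in every library, with a median of 409, a largest value of 221616 and totals of 38403767 to 38419709. The sequencing depth of each library is therefore unknown. No member was listed at 0 in any library (lowest value 24, Slc40a1). Markers of embryonic stem cells were high in all libraries, with 8 of 8 in the table and a summed value of 171573 to 274170. Summed values were 193 to 654 for 4 primitive endoderm markers of 5 listed, 27 to 1091 for 5 fibroblast markers, 13 to 97 for 2 erythroid markers of 5 listed, and 2641 to 5522 for 3 trophoblast markers of 4 listed, nearly all of it Tfap2c. The fibroblast marker Dcn was at 0 in all 22 libraries, whereas Col3a1 was 4 and 743 in the NC libraries. Some of these markers moved with the compounds. With DZNep, Col1a1 (24 and 24 in NC, 327 and 228 with the compound), Thy1, Dab2, Gata3, Gata1 and the stem cell marker Zfp42 were called higher and Gata4 lower. The summed fibroblast markers were 935 and 1055 with DZNep and 699 and 1091 with Valproate, against 54 and 809 in NC. With Valproate, Thy1 was called higher (12 and 11 to 358 and 303), and Tfap2c rose (3379 and 2712 to 4958 and 5480, adjusted p = 0.00296). With Bromosporine, Col1a1 was called lower and Tfap2c rose (adjusted p = 0.0498). None of the markers passed with MS023 or IOX1. The part of other cells in the DZNep, Valproate and Bromosporine results was not tested. In bulk RNA, fewer cells of a type and less RNA per cell cannot be told apart.

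Levels in NC differed by orders of magnitude per kilobase of transcript (normalized value divided by the length of the principal transcript). Mt1 (17204, libraries 15668 and 18740) and Mt2 (16143, libraries 13892 and 18393) came first and overlapped. Then followed Fth1 (9931) and Tfrc (2386). Ireb2 (913, libraries 1050 and 775) and Ftl1 (886, libraries 927 and 845) overlapped next, ahead of Slc39a10 (476), Slc11a2 (226), Slc30a1 (140) and Slc40a1 (20). By these values the metallothioneins led the order and the exporter ferroportin closed it. The place of Ftl1 is uncertain, and with it the lead. The summed value of Ftl1, Ftl1-ps1, Ftl2-ps and Ftl1-ps2 averaged 137556.5 in NC, against 9445 for Mt1, before division by length. How reads were assigned among these 4 genes is not known.

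Sequence shared with other genes limits 2 of these levels. Of the 31-base words of the Ftl1 transcript, 94.9% also occurred in other genes, 80.6% in the pseudogene Ftl1-ps1 alone. In the table Ftl1-ps1 stood at 76068 to 123460 and Ftl2-ps at 30812 to 67654, so Ftl1 made up 0.503% to 1.06% of the sum of Ftl1 with both of them and Ftl1-ps2, a sum chosen after the values had been seen. For Mt2, 55.5% of the words lay in Gm45774, an antisense gene over its exons, which stood at 201 to 495. Fth1 shared 12.9% of its words, Slc30a1 8.42%, Slc11a2 3.17% and Slc39a10 1.32%, and Mt1, Tfrc, Slc40a1 and Ireb2 shared none. Whether the counting used strand was not stated.

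Each compound was then compared with NC by limma on log2(value + 1), with Benjamini-Hochberg adjustment over all tested genes. A gene was called when its adjusted p was under 0.05 and its fold change over 2. None of the 100 pairs of a member and a compound was called, 3 had an adjusted p under 0.05 and 14 an unadjusted p under 0.05. The 3 were Slc30a1 with Valproate and Fth1 with DZNep and with MS023. The 14 are to be read against all 17275 tested genes by the same rule. Genes with an unadjusted p under 0.05 numbered 3281 with Bromosporine (3 members), 2148 with IOX1 (3) and 4158 with Valproate (2). They numbered 2584 with MS023 (2 members), 625 with Garcinol (2), 6110 with DZNep (1) and 1843 with OICR (1). With Chaetocin and CPTH2 they numbered 815 and 163, none of them a member. Of all tested genes, 5.28% were called with Valproate, 11.4% with DZNep, 0.973% with MS023, 3.34% with Bromosporine, 0.388% with OICR, 0.116% with IOX1, 0.0174% with Chaetocin, 0.00579% with CPTH2, 0.00579% with Garcinol and 0% with UNC0379, for which 1051 genes had an unadjusted p under 0.05. The 1 member in 10 that passed with each of Valproate, DZNep and MS023 by adjusted p is to be read against the shares by that rule, which were 10.3% with Valproate, 23.6% with DZNep, 2.21% with MS023, 5.4% with Bromosporine, 0.637% with OICR, 0.127% with IOX1, 0.0174% with Chaetocin, 0.00579% with CPTH2, 0.00579% with Garcinol and 0% with UNC0379. In an F test for any difference among the 11 groups, 1 of the 10 members (Fth1, adjusted p = 0.00365) and 29.7% of all tested genes passed. These fits leave out the replicate number. Some outcomes for members changed when it was included, as given with the alternatives.

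**Figure D1:**
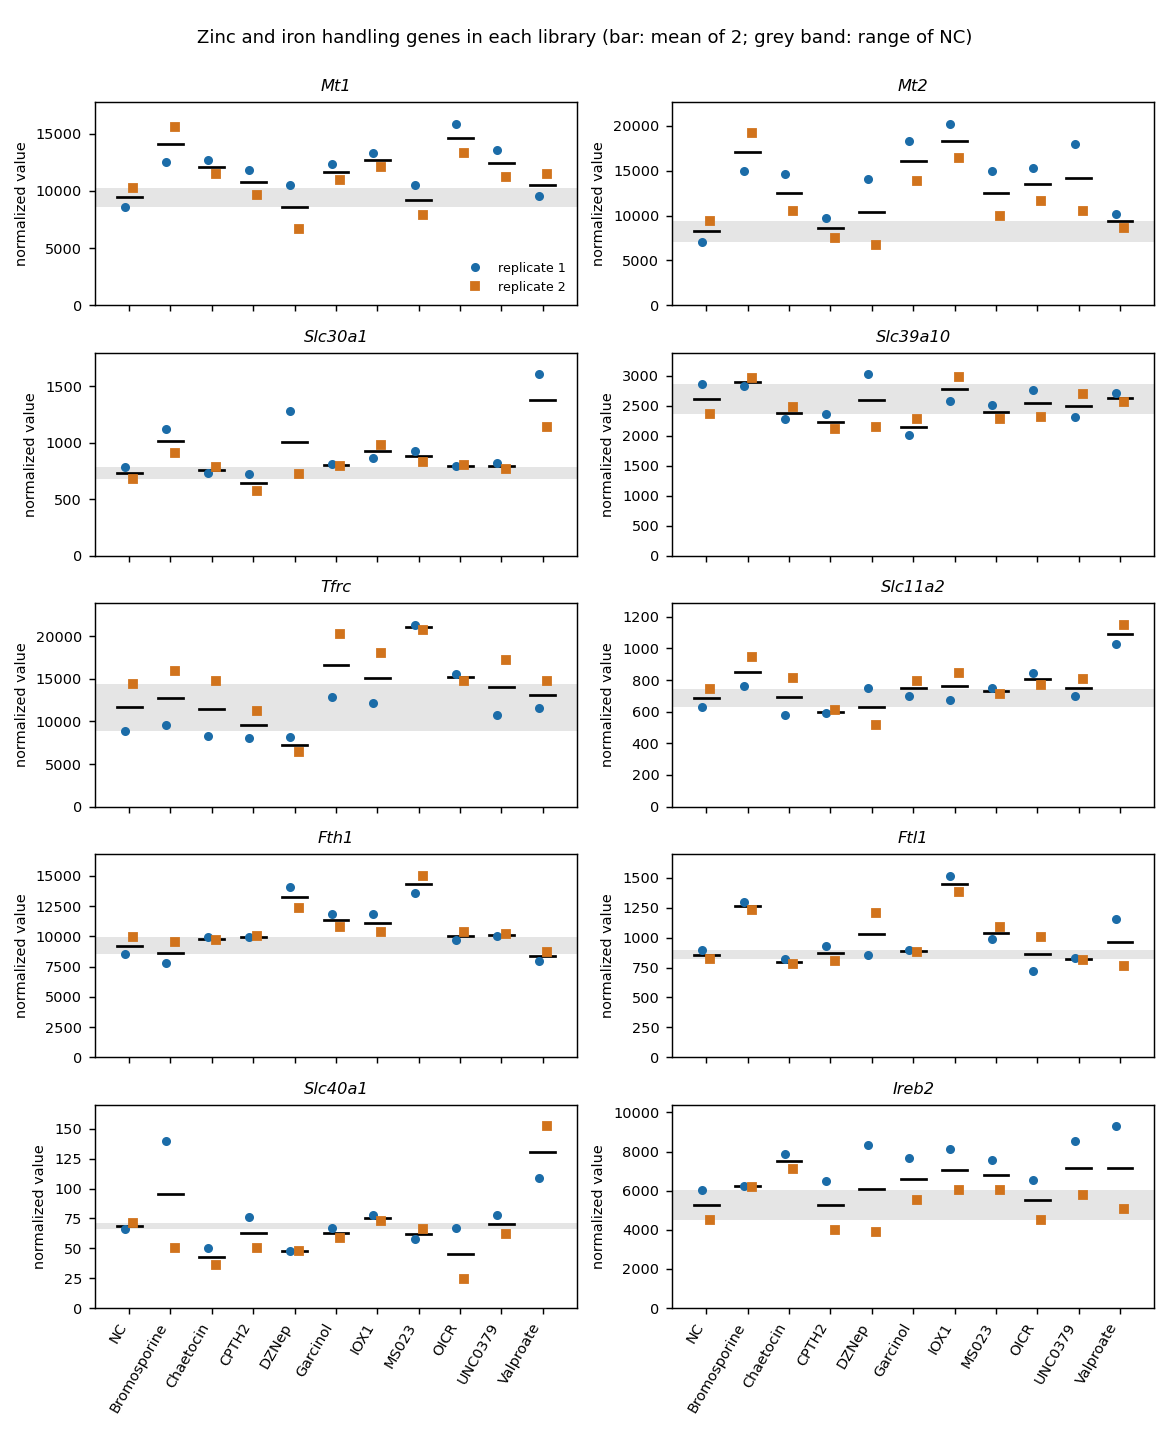
Normalized value (linear axis from 0) of each of the 10 genes in the 22 libraries, by group. Circles are replicate 1, squares replicate 2, bars the mean of the 2 libraries, and the grey band spans the NC libraries. The Fth1 libraries of DZNep and MS023 (12371 to 15007) and the Slc30a1 libraries of Valproate (1143 and 1606) lie above their NC bands.

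Mt1 and Mt2 lie side by side on chromosome 8 (chr8:94179082-94180327 and chr8:94172664-94173568, plus strand, GRCm38) and encode the metallothioneins of most tissues. Mt2 was 7099 and 9399 in the NC libraries and higher on average in all 10 compounds. It was 20251 and 16371 with IOX1, 14970 and 19187 with Bromosporine, and 18292 and 13804 with Garcinol. These 6 libraries all lay above both NC libraries, as did both libraries of 7 of the 10 compounds. The log2 difference from NC was 1.16 with IOX1 (SE 0.35, 95% interval 0.39 to 1.92, adjusted p = 0.202), 1.05 with Bromosporine (SE 0.35, adjusted p = 0.108) and 0.96 with Garcinol (SE 0.35, adjusted p = 0.967). None passed the test in this fit, which leaves out the replicate number. The lowest Mt2 value, 6676, was in DZNep replicate 2, while replicate 1 of DZNep stood at 14070, so this group spanned much of the range of the gene.

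Differences of Mt1 from NC were smaller. The gene was 8602 and 10288 in NC, with both libraries of 6 compounds above both NC libraries. Values were highest with OICR (15870 and 13304) and Bromosporine (12535 and 15567), with log2 differences of 0.63 (SE 0.22, adjusted p = 0.264) and 0.57 (SE 0.22, adjusted p = 0.155). IOX1 libraries held 13304 and 12098. DZNep replicate 2 was again the lowest library, at 6628. Ordered by group mean, no neighbouring groups were apart for either gene, since every group overlapped the next.

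The metallothioneins followed each other across libraries (Pearson r 0.753 and Spearman rho 0.771 over 22 libraries, 0.69 over the 11 group means). These libraries share replicate series and normalization, so the correlation is a description. Their ratio nevertheless differed between groups. Mt2 was 0.825 and 0.914 of Mt1 in NC, and 0.829 and 0.781 with CPTH2. With IOX1 the ratio was 1.52 and 1.35, with Garcinol 1.48 and 1.27, with MS023 1.43 and 1.27, and with Bromosporine 1.19 and 1.23, all above 1. OICR, which had the highest Mt1, kept a ratio of 0.967 and 0.876. This ratio was looked at after the values had been seen and was not tested. The antisense gene Gm45774, which shares sequence with Mt2 and not with Mt1, was 284 and 250 in NC, 436 and 250 with IOX1 and 412 and 495 with Bromosporine. It was 327 and 293 with Garcinol and 321 and 230 with MS023. Its part in the ratio was not tested.

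**Figure D2:**
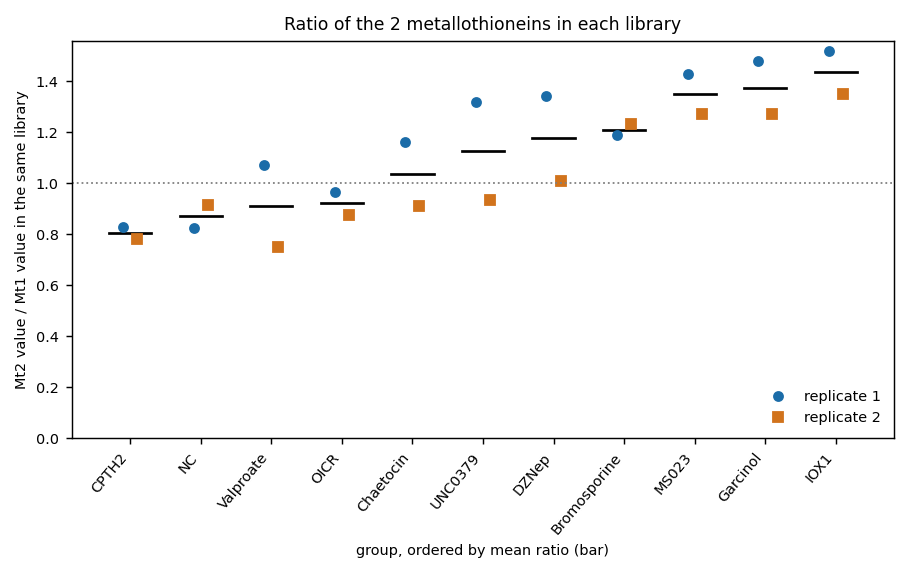
Mt2 value divided by Mt1 value in the same library (linear axis from 0), with groups ordered by their mean ratio (bar). Circles are replicate 1 and squares replicate 2, and the dotted line marks equal values. The NC libraries (0.825 and 0.914) lie under the line, and the IOX1 libraries (1.52 and 1.35) have the highest mean.

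Slc30a1 (chr1:191906767-191913247, plus strand) encodes ZnT1, which exports zinc across the plasma membrane, and it is a known target of MTF1. It was 783 and 681 in NC and 1606 and 1143 with Valproate, a rise of 0.89 on the log2 scale or 1.85-fold (SE 0.23, 95% interval 0.40 to 1.38, adjusted p = 0.023). It therefore passed the adjusted p and not the fold threshold. Thy1 and Tfap2c, listed here as markers of other cell types, rose in the same libraries. Tfap2c stood at 2576 to 5480 over all 22 libraries, whereas the trophoblast markers Cdx2 and Gata3 reached at most 24 and 54. The part of Thy1 and Tfap2c in the Slc30a1 result was not tested. The adjusted p was 0.0713 without NC replicate 1, 0.14 without NC replicate 2, 0.202 without Valproate replicate 1 and 0.214 with the Valproate and NC libraries fitted alone. Valproate libraries stood apart from those of the next group, Bromosporine (1126 and 914). With DZNep the libraries differed, at 1282 and 726. With Valproate, where Slc30a1 was highest, Mt2 was 10157 and 8602 and Mt1 9518 and 11490, and both pairs overlapped their NC pair. Over the 22 libraries Slc30a1 and Mt1 had a Pearson r of 0.06 and a Spearman rho of 0.173. Their Pearson r was -0.413 over the replicate 1 libraries and 0.401 over the replicate 2 libraries. The lowest library was CPTH2 replicate 2, at 575.

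Slc39a10 (chr1:46807544-46892852, minus strand) encodes the zinc importer ZIP10. It was the steadiest of the 10 genes, between 2009 and 3027 over all 22 libraries, a 1.51-fold range. NC held 2873 and 2359, and the libraries of 9 compounds reached into or across this range. Garcinol alone, at 2009 and 2276, had both libraries below both NC libraries. No compound gave an unadjusted p under 0.05 for this gene.

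Tfrc (chr16:32608920-32632794, plus strand) encodes the transferrin receptor, the main door for iron in dividing cells. It ranged from 6377 to 21314. NC held 8923 and 14408, a wide pair, and in 5 further groups (Bromosporine, Chaetocin, Garcinol, IOX1 and UNC0379) replicate 2 exceeded replicate 1 by more than this in value, though on the log2 scale only Bromosporine and Chaetocin did. MS023 had the highest values, 21314 and 20744, apart from the next group, Garcinol (12889 and 20287). Its log2 difference from NC was 0.89 (SE 0.36, adjusted p = 0.26). This did not pass in the fit without the replicate number, but did when the number was included, as given with the alternatives. DZNep had the lowest, 8179 and 6377, both below both NC libraries.

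Slc11a2 (chr15:100387898-100425072, minus strand) encodes DMT1, which carries iron out of endosomes after transferrin uptake. It was 628 and 742 in NC and 1028 and 1148 with Valproate, a log2 difference of 0.67 (SE 0.20, adjusted p = 0.0504). The Valproate libraries lay above those of every other group, the nearest being Bromosporine (761 and 944). Slc11a2 and Slc30a1, both highest with Valproate, correlated over the 22 libraries (Pearson r 0.641, Spearman rho 0.586) and over the 11 group means (Pearson r 0.788). Tfrc and Slc11a2, which act in the same uptake route, had an r of 0.571 over libraries and 0.435 over the 11 group means.

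Fth1 (chr19:9980598-9985098, plus strand) encodes the ferritin heavy chain, whose ferroxidase centre loads iron into the storage shell. It was the member that passed the F test. NC held 8544 and 9907. MS023 held 13614 and 15007, a rise of 0.64 on the log2 scale or 1.55-fold (SE 0.12, 95% interval 0.38 to 0.89, adjusted p = 0.0153). DZNep held 14112 and 12371, a rise of 0.52 or 1.44-fold (SE 0.12, 95% interval 0.27 to 0.78, adjusted p = 0.00624). These 4 libraries were above all the other 18. With DZNep 6 markers of other cell types passed as well (5 higher, 1 lower), with MS023 none did, and their part in the DZNep result was not tested. The adjusted p with MS023 was 0.167 without NC replicate 1, 0.0665 without MS023 replicate 1 and 0.114 without MS023 replicate 2. With DZNep it was 0.0812 without NC replicate 1 and 0.0515 without DZNep replicate 1. With only the compound and NC libraries in the fit it was 0.305 with MS023 and 0.158 with DZNep. Garcinol (11842 and 10799) and IOX1 (11842 and 10319) came next, with log2 differences of 0.30 (SE 0.12, adjusted p = 0.967) and 0.26 (SE 0.12, adjusted p = 0.383). Bromosporine (7767 and 9540) and Valproate (7978 and 8718) were the lowest groups and overlapped NC. Fth1 and Tfrc had a Pearson r of 0.183 over the 22 libraries. MS023 was the highest group for both genes, whereas DZNep was second for Fth1 and last for Tfrc.

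Ftl1 (chr7:45457944-45459884, minus strand) encodes the ferritin light chain. It was 897 and 818 in NC and 1518 and 1379 with IOX1, the highest values of the gene, followed by Bromosporine with 1298 and 1231. The IOX1 libraries were apart from the Bromosporine libraries, and these were apart from MS023 (989 and 1092). The log2 difference from NC was 0.76 with IOX1 (SE 0.20, 95% interval 0.32 to 1.19, adjusted p = 0.154) and 0.56 with Bromosporine (SE 0.20, adjusted p = 0.135). Neither passed in the fit without the replicate number, and the outcome with IOX1 changed when the number was included, as given with the alternatives. Gm10252, which lies over Ftl1 exons on the opposite strand and holds 34.8% of its words, was 347 and 283 in NC and rose with Bromosporine to 637 and 543 (log2 0.91, SE 0.24, adjusted p = 0.0417). With IOX1 it was 386 and 293. Its part in the Ftl1 values was not tested. The pseudogenes are so much higher than Ftl1 that a difference of this size would not show in a sum with them. At such high values the normalization leaves little more than ranks, and Ftl1-ps1 was listed at exactly 92353 in both libraries of NC and of IOX1. Reads that fit several of these genes may have been split among them in any proportion, so the Ftl1 value is uncertain.

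Slc40a1 (chr1:45908068-45926523, minus strand) encodes ferroportin, the iron exporter. Its values were low, between 24 and 152, and spread over a 6.33-fold range, the widest of the 10 genes. NC held 66 and 71. Valproate held 109 and 152, both above NC, and OICR held 67 and 24. Bromosporine libraries lay on either side of NC, at 140 and 50. No compound gave an unadjusted p under 0.05 against NC. Against the mean of the other 9 compounds the gene was called with Valproate, as given with the alternatives.

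Ireb2 (chr9:54863789-54912530, plus strand) encodes IRP2. It was 6058 and 4474 in NC, and its group means ran from 5241.5 with CPTH2 to 7504 with Chaetocin (7894 and 7114). No neighbouring groups in this order were apart, and no compound gave an unadjusted p under 0.05. Replicate 2 was lower than replicate 1 in 11 of 11 groups.

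**Figure D3:**
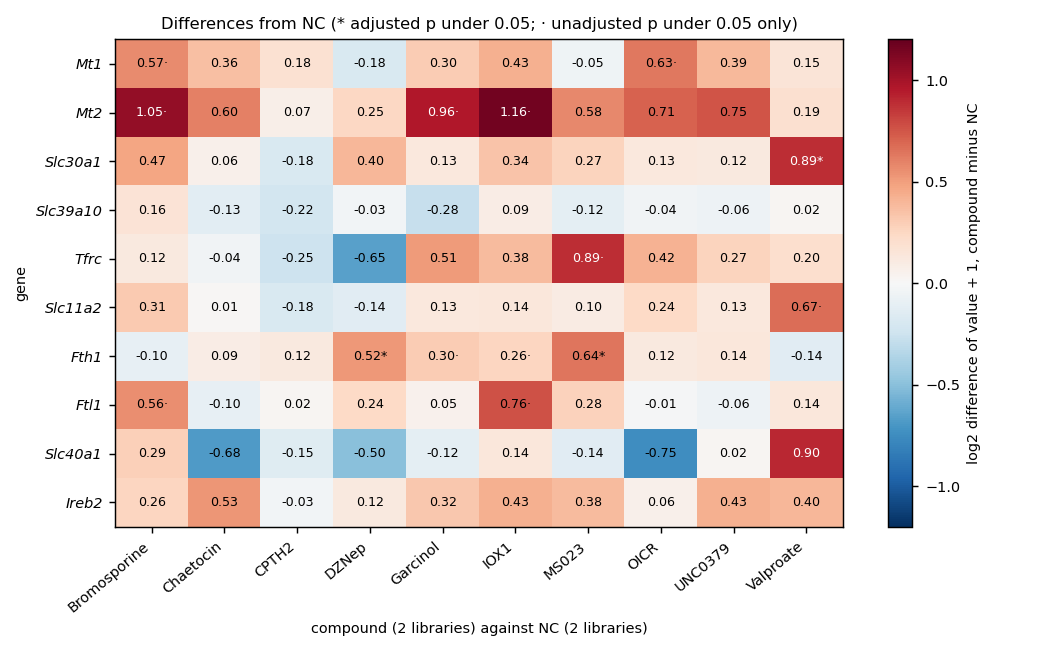
Log2 difference of value + 1 between each compound and NC (2 libraries each) for the 10 genes, red for higher and blue for lower than NC. Asterisks mark adjusted p under 0.05 (Slc30a1 with Valproate, Fth1 with DZNep and MS023) and dots an unadjusted p under 0.05 only (11 pairs), and no marked pair is below NC.

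With the replicate number as a factor beside the group, 3 members differed between replicate 2 and replicate 1, against 52.6% of all tested genes. Ireb2 was lower in replicate 2 by a log2 difference of -0.51 (SE 0.08, adjusted p = 0.000343). Mt2 was lower in 9 of 11 groups, at -0.35 (SE 0.12, adjusted p = 0.0228), but not in NC or Bromosporine. Tfrc was higher in 8 of 11 groups, at 0.41 (SE 0.11, adjusted p = 0.00649), with DZNep, MS023 and OICR the exceptions. Fth1 and Ftl1 did not pass, at 0.03 (SE 0.05) and -0.01 (SE 0.09). What the number stands for was not given in the labels.

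**Figure D4:**
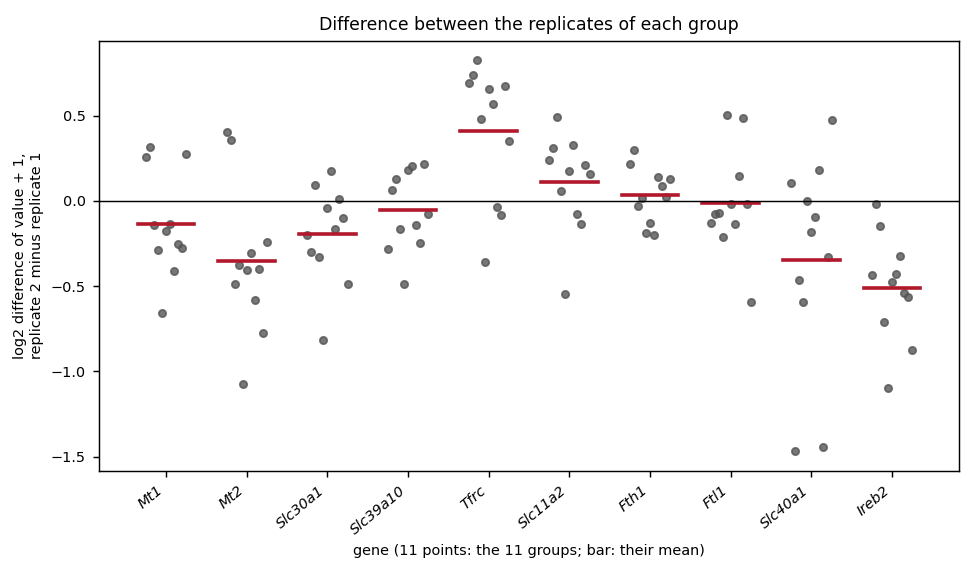
Log2 difference of value + 1, replicate 2 minus replicate 1, for each of the 10 genes. Each point is 1 of the 11 groups and the bar is their mean. All 11 points of Ireb2 lie below 0, and 8 of 11 points of Tfrc lie above it.

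IOX1 was singled out because it binds metal. All 10 members were higher on average with IOX1 than with NC, with a median log2 difference of 0.36, against a median of -0.02 and 47.3% higher over all genes tested. The same held for most members with other compounds: 9 of 10 were higher than NC with Bromosporine (median 0.30) and with Valproate (0.20), and 8 of 10 with Garcinol (0.22) and with UNC0379 (0.14). The NC libraries enter every one of these differences, so a contrast without NC was made as well, of IOX1 against the mean of the other 9 compounds. None of the 10 members passed it in limma without the replicate number, though Ftl1 did when it was included, as given with the alternatives. Without that number, 2 members had an unadjusted p under 0.05 (2445 of all tested genes did), and 1.35% of all tested genes passed. The 2 were Ftl1, higher with IOX1 by 0.63 on the log2 scale (SE 0.15, 95% interval 0.31 to 0.96, adjusted p = 0.0595), and Mt2, by 0.58 (SE 0.26, 95% interval 0.01 to 1.15, adjusted p = 0.34). Ftl1 and Mt2 are also the members that share most of their 31-base words with other genes (94.9% and 56.1%). The part of read assignment in their differences was not tested. Fth1 differed by 0.08 (SE 0.09), Slc30a1 by 0.08 (SE 0.17) and Slc11a2 by 0.00 (SE 0.15). The intervals of the other members span 0, and that of Tfrc reaches from -0.36 to 0.80, so a difference of this size in either direction could not be seen with 2 libraries.

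**Figure D5:**
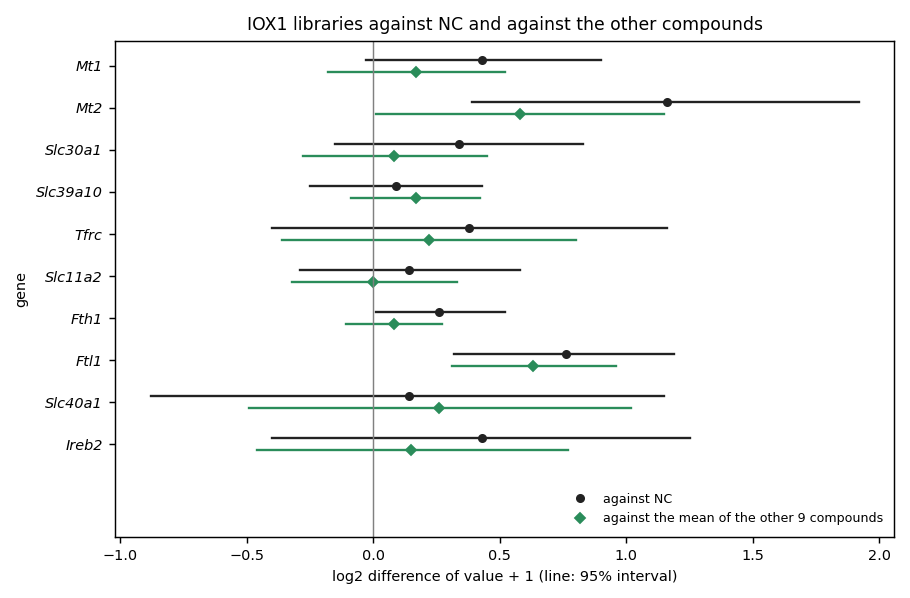
Log2 difference of value + 1 between the 2 IOX1 libraries and NC (circles) or the mean of the other 9 compounds (diamonds), with 95% intervals from limma, for the 10 genes. Only the intervals of Mt2 and Ftl1 lie above 0 in both contrasts.

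Beyond the 10 genes, 63 further zinc and iron genes were listed by function and 55 were tested. By adjusted p, 12 passed with DZNep (6 higher and 6 lower, 21.8% against 23.6% of all genes), 5 with Valproate (9.09% against 10.3%), 4 with Bromosporine (7.27% against 5.4%) and 3 with MS023 (5.45% against 2.21%). None passed with the other 6 compounds, IOX1 included. Whether these shares differ from those of all genes was not tested. In the metallothionein list, Mt3, a metallothionein best known from brain, fell with DZNep, from 87 and 69 to 22 and 34 (log2 -1.47, SE 0.43, adjusted p = 0.024). Mtf1, named after its values were seen, rose with Bromosporine (507 and 526 in NC, 726 and 711 with the compound, log2 0.48, adjusted p = 0.0481) and with DZNep (849 and 638, log2 0.51, adjusted p = 0.0109). Without single libraries the adjusted p of Mt3 was 0.153 (NC replicate 1), 0.0537 (NC replicate 2) and 0.144 (DZNep replicate 1). For Mtf1 it was 0.0772 (NC replicate 1) and 0.107 (DZNep replicate 1) with DZNep, and 0.128 to 0.243 with Bromosporine whichever of the 4 libraries was left out.

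Among zinc importers, Slc39a14, which encodes ZIP14 and also carries iron, rose with DZNep from 48 and 72 to 579 and 351 (log2 2.92, SE 0.41, adjusted p = 0.000278). It rose with Valproate to 212 and 180 (log2 1.72, SE 0.41, adjusted p = 0.0174). The DZNep rise was the largest in the lists. Markers of other cell types rose with both compounds, as given above, and their part in it was not tested. Slc39a11 fell with DZNep from 2829 and 2077 to 1174 and 1098 (log2 -1.09, SE 0.22, adjusted p = 0.00284). Among exporters of the Slc30 family, Slc30a3, which loads zinc into vesicles, fell with Bromosporine from 232 and 212 to 79 and 100 (log2 -1.31, SE 0.23, adjusted p = 0.00591). The rise of Slc39a14 with Valproate had an adjusted p of 0.14 without NC replicate 1, 0.107 without Valproate replicate 1 and 0.051 without Valproate replicate 2, and the fall of Slc30a3 one of 0.065 without NC replicate 1 and 0.0664 without Bromosporine replicate 1.

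In the iron uptake list, Steap2, a metalloreductase that reduces iron before it is carried in, fell with DZNep from 246 and 232 to 53 and 42 (log2 -2.32, SE 0.20, adjusted p = 1.05e-05). Tfr2, which encodes another transferrin receptor, held 7 and 9 in NC, and with Bromosporine each library listed it at 0. No gene of the storage, export, regulatory or haem lists was called. Singled out after the values were seen, Aco1, which encodes IRP1, fell with DZNep (4100 and 4047 to 2635 and 2671, log2 -0.62, SE 0.08, adjusted p = 0.000118), and Hmox1, which encodes the haem-degrading enzyme haem oxygenase, rose with MS023 by 0.97 (1699 and 1685 to 2838 and 3848, SE 0.17, adjusted p = 0.0125). For Hmox1 the adjusted p was 0.097 without NC replicate 1, 0.067 without NC replicate 2 and 0.107 without MS023 replicate 2, and for Tfr2 it was 0.0965 to 0.125 whichever library was left out. In the MS023 libraries Fth1, Hmox1 and Tfrc were thus all above both NC libraries, and the first 2 passed the test. Ftl1 also lay above both NC libraries (989 and 1092 against 897 and 818) but did not pass (adjusted p = 0.583). The share of all genes that lay above both was not counted. Not every iron gene was higher. Steap2 fell with MS023 to 112 and 154 (log2 -0.86, SE 0.20, adjusted p = 0.047). Slc11a2, at 750 and 712, reached into its NC range (628 and 742).

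Over the 11 group means, the profiles most like that of Mt1 among 12870 genes were those of Zfp3 (Pearson r 0.941), Gm14416 (0.930) and D930048N14Rik (0.923), and not Mt2. For Tfrc they were Pigh (0.911), Fubp3 (0.886) and Ctu2 (0.884). For Fth1 they were Klc4 (0.941), Hspa5 (0.940), which encodes the chaperone of the endoplasmic reticulum BiP, and Endov (0.938). With so many genes and only 11 points, values of this size are a description.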

How the data were processed

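The 22 RNA-seq libraries (E14 cells, 10 compounds and NC, 2 each) were grouped by sample title. The deposited values are scores, here read counts that the authors normalized and rounded to whole numbers. The labels name Bowtie2 2.2.5, RSEM and mm10, and the study's methods, which do not mention the compounds, name EDASeq at its full-quantile setting. That step hides depth and any change shared by most genes, so no interval that needs depth was given. A second deposited table of the authors' group means was not used.

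The log2(value + 1) was fitted with limma 3.58.1 under R 4.3.3 (lmFit, eBayes with trend, 11 group means, 11 residual degrees of freedom) for the genes that reached 10 in 2 or more libraries. P-values are two-sided, with Benjamini-Hochberg adjustment within each contrast. The count model of the study was not run on these normalized values. The fit was tested on simulated data first. All 10 members were described, and of the wider lists the called genes, at most 3 a list and compound. For likeness, the 3 genes with the highest Pearson correlation were named among those with a mean of at least 100. Members and lists were chosen with earlier results of these data known. Annotation was GENCODE M21, promoters were from RefSeq GRCm38.p6 (8 of the 10 members matched), and sequences were searched in Python 3.11.15. Figures were drawn with matplotlib 3.10.9. Alternatives were other pseudocounts, filters, scaling, adjustment, reference group, samples in the fit, a replicate block and leaving out each replicate. Chosen after seeing the data were the Mt2 to Mt1 ratio, the Ftl1 sum and the alternatives of the replicate contrast.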

Additional observations from a re-analysis of the deposited data

How the results depend on the processing

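The 14 pairs with an unadjusted p under 0.05 kept their direction in all 154 alternative values, with 0 reversed. The pairs here and below were picked from these same data, and the alternatives use the same libraries again. Some settings, such as another adjustment or the replicate block, cannot change the estimate. A kept direction is therefore a description and not a test. The number of members called moved from 0 to 1 with the adjusted p alone for DZNep (Fth1), MS023 (Fth1) and Valproate (Slc30a1). It also moved to 1 for Valproate against the other 9 compounds, where 1337 of all tested genes were called. That member was Slc40a1, the only one over the fold threshold there, since Slc30a1 differed by 0.70 on the log2 scale. The log2 change of Slc30a1 from NC was 0.65 without Valproate replicate 1 and 1.14 without Valproate replicate 2. Of the 3 pairs that passed, Slc30a1 with Valproate also missed the threshold with adjustment over all 10 contrasts (0.0516), beside the losses given with each gene. The smaller fits leave fewer residual degrees of freedom. Slc11a2 with Valproate passed with a pseudocount of 10 (0.0474), rescaling (0.0329) and the other 9 compounds as reference (0.0136). Ireb2, Tfrc and Mt2 kept their direction and passed between replicate numbers under all 3 alternatives run for that contrast. Of 220 alternative values of the 20 other named pairs, which were added after seeing the data, 0 reversed and 57 missed the threshold, and each pair but Tfr2 missed it with the compound and NC libraries alone. Rescaling moved the median of all genes by at most 0.0358.

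Deviations of same-numbered libraries correlated at 0.0535 to 0.298 between groups, over 0.1 in 51 of 55 pairs of groups. The criterion for pairing, over 0.1 in every pair, was not met, so the fit without the block is given in the report, although 52.6% of tested genes differed between the replicate numbers. With the replicate block, 1 member was called with Bromosporine and 1 with IOX1 (Mt2 in both, adjusted p = 0.0208 and 0.0377). In the F test with the block 7 members differed among the 11 groups, and 1 differed between IOX1 and the other 9 compounds (Ftl1, 0.0234). The shares of all tested genes that passed the F test and the IOX1 contrast with the block were not counted. Whether 7 members and 1 member are more than those shares therefore cannot be told. Tfrc with MS023 (0.0424), Slc11a2 with Valproate (0.0191) and Ftl1 with IOX1 (0.0491) also passed with the block.

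Genes called over the whole table were 577 with Bromosporine, 1970 with DZNep, 20 with IOX1, 168 with MS023 and 912 with Valproate. With the block they were 1189, 2606, 217, 484 and 1487, and with the compound and NC libraries only 128, 97, 42, 67 and 75. With 1 library left out they ranged from 218 (without NC replicate 1) to 487 with Bromosporine, 1188 (without NC replicate 1) to 2357 with DZNep, 8 (without IOX1 replicate 1) to 37 with IOX1, 28 (without NC replicate 1) to 90 with MS023, 514 (without NC replicate 1) to 798 with Valproate and, for OICR (67 in all), 14 (without OICR replicate 2) to 61. With the other 4 compounds they were at most 17. Depth is unknown, and 2 libraries a group limit every test.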

Other observations

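Copper handling genes, which the report did not cover, were also listed. Of 9 tested, Atox1, the chaperone that hands copper to the ATP7 pumps, rose with DZNep from 1822 and 2285 to 4562 and 5200 (log2 1.25, SE 0.14, limma adjusted p = 5.27e-05). It also rose with Valproate to 3886 and 3057 (log2 0.76, adjusted p = 0.00454) and with Bromosporine to 3003 and 2961 (log2 0.55, adjusted p = 0.0398), both below the fold threshold of 2. Leaving out NC replicate 1 or the compound's replicate 1 brought the adjusted p to 0.0593 and 0.0534 with Valproate and to 0.33 and 0.182 with Bromosporine, where it was 0.131 without Bromosporine replicate 2. Atp7b, a copper-exporting pump, fell with MS023 from 108 and 87 to 19 and 21 (log2 -2.22, SE 0.23, adjusted p = 0.000737).

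Ferritin heavy chain-like genes of the Fthl17 family were looked at after their values had been seen. Fthl17c was 83 and 63 in NC and 1135 and 778 with Valproate (log2 3.68, SE 0.41, adjusted p = 0.000153), and 183 and 244 with DZNep (log2 1.53, adjusted p = 0.0147, but 0.0882 without NC replicate 2 and 0.0804 without DZNep replicate 2). Fthl17d was 40 and 27 in NC, 688 and 313 with Valproate (log2 3.78, SE 0.53, adjusted p = 0.000755) and 176 and 164 with DZNep (log2 2.33, adjusted p = 0.006). Fthl17f was 30 and 14 in NC and 154 and 98 with Valproate (log2 2.52, SE 0.41, adjusted p = 0.00185). With DZNep it was 36 and 44 and did not pass (adjusted p = 0.121). Fthl17a, near the floor at 7 and 17 in NC, did not pass with Valproate (25 and 24, adjusted p = 0.714) or DZNep (11 and 39, adjusted p = 0.72). Fth1 itself was 7978 and 8718 with Valproate. These are close copies of each other, and reads may have been split among them.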
